A study of Homo sapiens with 32 samples.

Results

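Folliculin (FLCN), its binding partners FNIP1 and FNIP2, the Rag GTPases RRAGA, RRAGB, RRAGC and RRAGD, and the transcription factors TFEB, TFE3 and MITF were followed through polysome profiling of 2 breast cell lines. The 10 genes were taken by symbol among the protein-coding rows of the count tables, where each had 1 row, out of 19815 protein-coding genes. In each line the whole mRNA of the lysate (total, T) and the mRNA bound by polysomes (P, taken from a sucrose gradient) were sequenced in 4 treatments with 2 biological replicates each, giving 16 libraries per line and 32 in all. MCF10A is an immortalised, non-tumoural mammary epithelial line and MDA-MB-231 a triple-negative breast cancer line. They were grown in different media, their libraries carry barcodes of different series, and their counts were deposited separately. Line, medium and barcode series therefore cannot be told apart. Untreated normoxic cells (N) were compared with cells held at 0.5% O2 for 24 h (H), with normoxic cells given PP242, an inhibitor of the mTOR kinase, at 2.5 µM for 3 h (NPP), and with cells given both (HPP). PP242 was dissolved in DMSO, which the cells without the inhibitor received as vehicle. The T and P libraries of a treatment with the same replicate number share a number in their titles and may come from the same culture. Library totals ran from 30302497 to 46032327 counts in MCF10A and from 18340916 to 39536845 in MDA-MB-231.

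The Rag GTPases work as pairs, RRAGA or RRAGB with RRAGC or RRAGD, which bring the kinase complex mTORC1 to the lysosome when amino acids are plentiful. Folliculin, bound to FNIP1 or FNIP2, is the GTPase-activating protein for RRAGC and RRAGD, and its loss causes the Birt-Hogg-Dubé tumour syndrome. TFEB, TFE3 and MITF are related helix-loop-helix factors that mTORC1 keeps in the cytoplasm through phosphorylation and binding to 14-3-3 proteins; in the nucleus they bind E-box sequences near genes of lysosomes and autophagy, and the genes of folliculin, its partners and several Rags are among their known targets.

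Some MCF10A libraries stood apart from the rest. When the log2 level of each gene relative to the mean of its line was set against transcript length, the slope per doubling of length was -0.50 in MCF10A NPP T replicate 2, -0.31 in N P replicate 1, -0.29 in HPP T replicate 2 and -0.21 in H P replicate 1. The lowest slope in MDA-MB-231 was -0.15. NPP T replicate 2 also had the highest share of counts on ribosomal protein genes, 16.3%, and its log2 levels differed from those of replicate 1 with an SD of 1.19 across genes. FNIP1, FNIP2 and MITF have the long canonical transcripts of 6568, 7038 and 4799 nucleotides, and their levels in that library were 7.75, 0.88 and 3.68 CPM (counts relative to the library total, normalised by trimmed mean of M-values within a line), against 52.7, 7.05 and 15.8 CPM in replicate 1. The part of these libraries in the results was not tested beyond leaving them out and an offset for transcript length. In P the share on ribosomal protein genes was 1.37% to 4.35% with PP242 and 5.27% to 13.7% without it, over both lines. Values in MCF10A for genes of the 10, and calls in the lists of related genes, are therefore given below also without these 4 libraries. This comparison was added after the data had been seen. It leaves 1 library in each of the groups N P, H P, NPP T and HPP T, so that a comparison with one of these groups rests on 1 sample, which is assumed to vary like the samples of the other groups.

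Markers were set against the labels. KRT5, KRT14 and ITGB4, of basal epithelium, had medians of 1919, 1543 and 513 CPM over the MCF10A libraries and 0, 0.27 and 24.3 CPM in MDA-MB-231. TP63, CDH1 and EPCAM, also expected of MCF10A, were close to absent in it, with medians of 0.040, 0.079 and 0.30 CPM, while the mesenchymal genes VIM and FN1 stood at 2620 and 2951 CPM. MDA-MB-231 had medians of 3973 CPM for VIM, 61.9 for ZEB1 and 0.22 for CDH1, but FN1 was lower there, at 132 CPM, and EPCAM higher, at 12.8 CPM. FN1 and EPCAM thus went against the marker lists in both lines, and the libraries labelled MCF10A carried basal keratins without these 3 epithelial markers. CA9, a hypoxia-induced carbonic anhydrase, lay between 522 and 1356 CPM in the hypoxic MCF10A libraries and between 7.73 and 26.9 in the normoxic ones, and in MDA-MB-231 between 13.0 and 34.6 against 0.057 to 1.02. NDRG1 and ANKRD37 separated the hypoxic from the normoxic libraries in both lines as well, whereas VEGFA did so in MCF10A and overlapped in MDA-MB-231, at 228 to 433 CPM against 153 to 301. For the factors that other cell types also use, the melanocyte genes TYR, DCT and MLANA did not exceed 0.68 CPM in any library and PMEL did not exceed 1.68 CPM. The leukocyte genes PTPRC and CD3E did not exceed 1.14 CPM, the macrophage receptor gene CSF1R reached 2.95 CPM in MCF10A and 0.92 in MDA-MB-231, and the osteoclast phosphatase gene ACP5 did not exceed 0.88 CPM. CD68, a lysosomal protein known as a macrophage marker, had medians of 68.2 and 91.5 CPM in MCF10A and MDA-MB-231.

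In untreated cells RRAGA was the most abundant of the 10 transcripts per unit of length in both lines. The total mRNA of MCF10A N cells held 81.0 and 77.9 CPM per kb of RRAGA, and that of MDA-MB-231 46.9 and 48.1. RRAGC and TFE3 followed, RRAGC with means of 15.5 CPM per kb in MCF10A and 16.6 in MDA-MB-231, and TFE3 with 16.9 and 13.5, and the 2 genes could not be put in order because their replicates overlapped. In MCF10A TFEB (mean 5.36 CPM per kb), FLCN (5.25), RRAGB (4.10), MITF (3.52), FNIP1 (3.10) and FNIP2 (1.56) came next, neighbours in this order overlapping except for FNIP2, which lay below FNIP1 in both replicates. In MDA-MB-231 the order was FLCN (8.71), MITF (8.68), RRAGB (4.55), FNIP1 (4.36), FNIP2 (2.70), RRAGD (2.29) and TFEB (0.33), where FLCN overlapped MITF and RRAGB overlapped FNIP1 while the other neighbours did not overlap. These are shares of a library, so that less RNA per cell and fewer cells expressing a gene cannot be told apart.

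**Figure D1:**
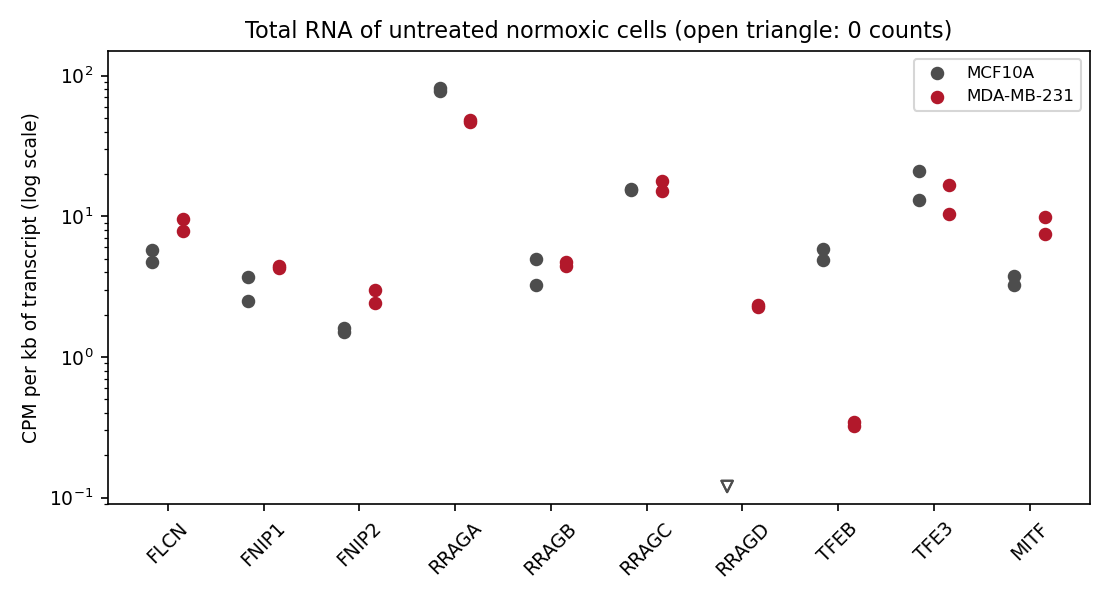
Level of each gene in total mRNA of untreated normoxic cells, in CPM per kb of transcript on a log scale, with 1 point per replicate of MCF10A (grey) and MDA-MB-231 (red). The open triangle at the bottom marks RRAGD in MCF10A, which had 0 counts in both replicates; TFEB is the gene with MDA-MB-231 points far below those of MCF10A.

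The lines differed most in 1 Rag GTPase and 2 of the transcription factors. RRAGD had 0 and 0 counts in the T libraries of untreated MCF10A and 367 and 234 in those of MDA-MB-231; set against a floor of 3 counts per library, it was at least 135-fold higher in MDA-MB-231. All 16 MCF10A libraries together held 2 counts of RRAGD, so the gene did not pass the filter on low counts there and was not tested in that line. TFEB (chr6:41683978-41736259, minus strand) stood at 9.69 and 11.6 CPM in MCF10A and at 0.86 and 0.97 in MDA-MB-231, each scaled within its line, a log2 fold change (log2FC) of -4.01 between lines (SE 0.35, edgeR adjusted p = 9.02e-09). Its sums were 5992 counts in the 16 libraries of MCF10A and 563 in those of MDA-MB-231, where no library exceeded 60 counts, so that ratios for TFEB in the cancer line rest on few counts. MITF was higher in MDA-MB-231 by a log2FC of 1.30 (SE 0.42, adjusted p = 0.0159) and FLCN by 0.73 (SE 0.29, adjusted p = 0.0473, a call that held in 14 of the 32 fits that each left out 1 library), and RRAGA was lower, with a log2FC of -0.74 (SE 0.27, adjusted p = 0.0328). The call of RRAGA held under 6 of 8 alternative settings, with log2FC from -0.77 to -0.56 and adjusted p up to 0.0762, and was lost when any of the 4 N T libraries was left out. RRAGD passed the filter over both lines only through MDA-MB-231, where it was high, and is not counted as a call here. TFEB, MITF, FLCN and RRAGA were the genes called among the 9 tested in both lines. This stood beside 40.7% of all genes tested, so the number of calls is near the background. TFEC, the remaining member of the family, did not exceed 0.46 CPM in any library. The log2FC between lines of TFE3 was -0.33 (adjusted p = 0.424) and that of RRAGC 0.10 (adjusted p = 0.708).

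FLCN and RRAGC rose with PP242 in both lines, and FNIP1 rose with it in MDA-MB-231 and, against N, in MCF10A HPP P. FLCN and RRAGC were called in 6 of the 12 comparisons of a treatment with N, FNIP1 in 5 and MITF in 1, all upwards, and the other 6 genes in none. The 10 genes were chosen with earlier results of these data known. The shares of all genes below are therefore given for scale and are not a test. In MDA-MB-231 NPP the T libraries gave 2 calls among 10 genes, beside 0.555% of all genes tested, and the P libraries 3, beside 1.95%. MCF10A NPP gave 0 calls among 9 genes in T (0.648% of all genes) and 1 in P (0.823%). In HPP 3 genes were called in T (13.2% of all genes) and 4 in P (19.4%) in MDA-MB-231, and 2 in T (14.9%) and 3 in P (22.2%) in MCF10A. Hypoxia without the inhibitor gave 0 calls in T and P of MDA-MB-231 (1.27% and 2.29% of all genes) and 0 in T and P of MCF10A (1.54% and 1.49%). At an unadjusted p under 0.05 edgeR found 1 and 2 of the genes in T and P of MDA-MB-231 H, 2 and 2 in MCF10A H and 2 in MCF10A NPP T, and DESeq2 called 0 in H and 1 in MCF10A NPP T. Counted upwards alone, the calls over all genes were 0.377% in NPP T, 0.762% in NPP P, 6.31% in HPP T and 9.71% in HPP P of MDA-MB-231, and 0.343%, 0.472%, 7.43% and 10.2% in MCF10A in the same order. Without the 4 MCF10A libraries that stood apart, the log2FC in HPP T was 2.39 for FLCN, 2.22 for FNIP1 and 1.07 for RRAGC. In HPP P it was 2.48, 2.10 and 1.27 for these genes, 1.07 for RRAGB and -1.14 for FNIP2. In NPP P it was -1.45 for FNIP2 and 1.06 for RRAGC. Each of these comparisons has 1 library in a group, so calls of this fit are not counted here. The median log2FC over the genes tested was 0.45 in MDA-MB-231 HPP P and 0.57 in MCF10A HPP P, against 0.01 and -0.04 over all genes. In NPP it was smaller, 0.02 in T and 0.12 in P of MDA-MB-231 and 0.16 and 0.20 in MCF10A. The NPP medians over all genes lay between -0.035 and 0.018.

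FLCN (ENSG00000154803.12, chr17:17212212-17237188 of GRCh38, minus strand, canonical transcript of 14 exons) rose in HPP in MCF10A. In the T libraries it was at 18.1 and 14.6 CPM in N, 20.2 and 11.7 in H, 37.4 and 21.7 in NPP, and 85.6 and 52.3 in HPP. Both HPP libraries lay above all others, and both NPP libraries above those of N and H. The P libraries had 13.1 and 15.7 CPM in N, 14.3 and 17.1 in H, 39.4 and 39.5 in NPP, and 73.0 and 100.1 in HPP. Here the order N and H, NPP, HPP held without any overlap between these steps. Against N, FLCN rose in HPP by a log2FC of 2.08 in T (SE 0.37, adjusted p = 0.0035) and 2.59 in P (SE 0.38, adjusted p = 0.000932), or 6.01-fold in P. In NPP its log2FC was 0.85 in T (SE 0.36, adjusted p = 0.457) and 1.46 in P (SE 0.36, adjusted p = 0.0853), neither past the threshold of 0.05. In NPP P it passed under 3 of 8 alternative settings (DESeq2, the replicate block within each fraction and an offset for transcript length, the last at a log2FC of 1.40 with an adjusted p of 0.014) and in 2 of the 16 fits that each left out 1 library.

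In MDA-MB-231 FLCN rose in all 4 comparisons with PP242. Its T libraries were at 33.2 and 41.9 CPM in N, 41.0 and 37.0 in H, 75.4 and 96.4 in NPP, and 78.8 and 84.8 in HPP. In P it stood at 28.8 and 42.1 CPM in N, 36.4 and 34.4 in H, 60.8 and 80.6 in NPP, and 75.2 and 77.0 in HPP. All 8 libraries with PP242 lay above all 8 without it. FLCN rose in NPP by 1.195 in T (SE 0.20, adjusted p = 0.0159) and 0.99 in P (SE 0.20, adjusted p = 0.0135), and in HPP by 1.13 in T (SE 0.20, adjusted p = 0.00258) and 1.10 in P (SE 0.20, adjusted p = 0.00174), all as log2FC. The call in NPP T was lost in 3 of the 16 fits that each left out 1 library and that in NPP P in 2 of 16. Both were lost when the fit held only the libraries compared (adjusted p = 0.088 in T and 0.0864 in P).

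FNIP1 (ENSG00000217128.11, chr5:131641714-131797017, minus strand), which binds folliculin and AMPK, rose as well. The MDA-MB-231 T libraries had 33.4 and 33.8 CPM in N, 27.2 and 27.7 in H, 69.6 and 69.4 in NPP, and 67.9 and 56.9 in HPP. In P the values were 22.5 and 29.0 in N, 18.0 and 22.3 in H, 58.8 and 69.1 in NPP, and 53.8 and 53.6 in HPP. The libraries with and without PP242 did not overlap. The log2FC of FNIP1 was 1.05 in NPP T (SE 0.16, adjusted p = 0.00867), 1.31 in NPP P (SE 0.16, adjusted p = 0.000432), 0.89 in HPP T (SE 0.16, adjusted p = 0.0027) and 1.06 in HPP P (SE 0.16, adjusted p = 0.000438). The call in NPP T was lost in 3 of the 16 fits without 1 library and with only the libraries compared (adjusted p = 0.055).

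In MCF10A FNIP1 rose in HPP P and its T replicates lay far apart. T libraries held 20.8 and 13.8 CPM in N, 21.5 and 8.93 in H, 52.7 and 7.75 in NPP, and 80.8 and 24.6 in HPP, with replicate 2 the lower in each treatment. P libraries held 6.22 and 13.0 CPM in N, 9.80 and 10.5 in H, 33.7 and 33.0 in NPP, and 49.6 and 59.9 in HPP, where all libraries with PP242 lay above all without. The only call was in HPP P, a log2FC of 2.51 (SE 0.80, adjusted p = 0.0426), which held in 7 of the 16 fits that each left out 1 library, and HPP T gave 1.61 (SE 0.77, adjusted p = 0.195). NPP P gave 1.80 (SE 0.78, adjusted p = 0.343) and passed under 1 of 8 alternative settings, the replicate block within each fraction (adjusted p = 0.0338). In HPP T FNIP1 passed under 3 of 8 alternative settings, among them the length offset with all libraries kept (1.68, adjusted p = 0.0221). Another was the fit without the 4 libraries that stood apart, with a log2FC of 2.22 (adjusted p = 0.00701), in which FNIP1 kept its call in HPP P at 2.10 (adjusted p = 0.0114). There the value in HPP T rests on HPP T replicate 1 alone, the higher of its pair, and that in HPP P on N P replicate 2 alone.

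FNIP2, the other partner of folliculin, was not called in any treatment. In MDA-MB-231 its 16 libraries ran from 16.8 to 30.2 CPM with a median of 22.2. In MCF10A T it was at 9.69 and 8.96 CPM in N and 13.3 and 9.39 in H. With PP242 it was lower, at 7.05 and 0.88 in NPP and 5.47 and 2.55 in HPP. Replicate 2 of NPP T and of HPP T are among the libraries that stood apart. The log2FC in T was -1.21 in NPP (edgeR adjusted p = 0.653) and -1.215 in HPP (adjusted p = 0.295). In MCF10A P it was at 4.64 and 9.58 CPM in N, 6.01 and 10.8 in H, 4.03 and 2.97 in NPP, and 4.28 and 4.26 in HPP, so that the libraries with PP242 were the lower ones. Its log2FC there was -1.03 in NPP (adjusted p = 0.614) and -0.74 in HPP (adjusted p = 0.484). Leaving out the 4 libraries that stood apart brought these to -1.45 (adjusted p = 0.0428) and -1.14 (adjusted p = 0.019), against N P replicate 2 alone, the higher of its pair.

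RRAGC (ENSG00000116954.7, chr1:38838198-38859772, minus strand), on which folliculin acts, rose in both lines. MCF10A T libraries were at 34.8 and 35.6 CPM in N, 28.7 and 34.0 in H, 56.1 and 63.4 in NPP, and 73.8 and 80.8 in HPP. MCF10A P libraries were at 34.5 and 40.2 in N, 33.1 and 36.5 in H, 73.1 and 93.4 in NPP, and 100.3 and 90.3 in HPP. No library with PP242 overlapped one without it. RRAGC rose by a log2FC of 1.14 in HPP T (SE 0.21, adjusted p = 0.00469), 1.35 in HPP P (SE 0.21, adjusted p = 0.00152) and 1.16 in NPP P (SE 0.21, adjusted p = 0.0291), and NPP T gave 0.76 (SE 0.21, adjusted p = 0.181). The call in NPP P was lost without the 4 libraries that stood apart, where N P is 1 library and the log2FC was 1.06 (adjusted p = 0.0697), and in 11 of the 16 fits that each left out 1 library, where it ran from 0.97 to 1.32.

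In MDA-MB-231 T RRAGC was at 46.9 and 57.5 CPM in N, 58.0 and 58.6 in H, 73.7 and 76.5 in NPP, and 104.8 and 90.9 in HPP. In P it was at 52.7 and 62.7 CPM in N, 57.5 and 62.0 in H, 86.5 and 113 in NPP, and 115 and 124 in HPP. Again the libraries with PP242 lay above those without it. The log2FC was 0.53 in NPP T (SE 0.16, adjusted p = 0.193), 0.79 in NPP P (SE 0.16, adjusted p = 0.0153), 0.91 in HPP T (SE 0.16, adjusted p = 0.00258) and 1.05 in HPP P (SE 0.16, adjusted p = 0.000485). The call in NPP P was lost in 2 of the 16 fits without 1 library and with only the libraries compared (adjusted p = 0.0976).

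**Figure D2:**
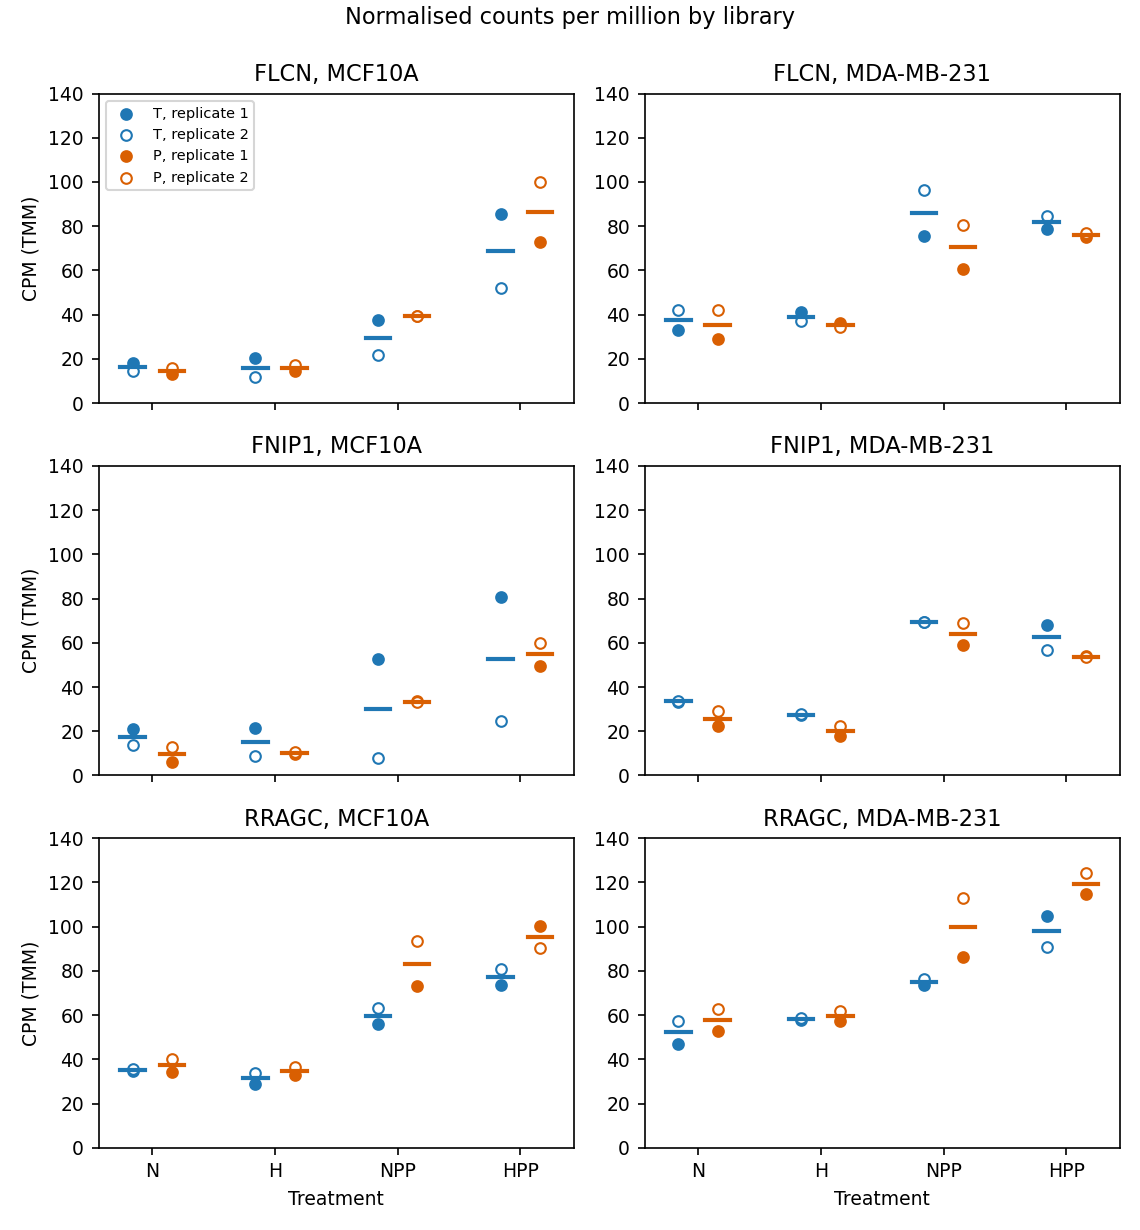
CPM of FLCN, FNIP1 and RRAGC in every library of MCF10A (left) and MDA-MB-231 (right) by treatment, with total mRNA in blue, polysome-bound mRNA in orange, filled points for replicate 1, open points for replicate 2 and a bar at the mean of 2. The NPP and HPP points lie above those of N and H in all panels except for FNIP1 in MCF10A T, where NPP replicate 2 is at 7.75 CPM.

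The effect of PP242 within hypoxia was read from HPP against H. FLCN rose by a log2FC of 2.11 in T (adjusted p = 0.00916) and 2.46 in P (adjusted p = 0.00443) in MCF10A, and by 1.07 (adjusted p = 0.0108) and 1.10 (adjusted p = 0.0027) in MDA-MB-231. RRAGC rose by 1.30 in T (adjusted p = 0.00717) and 1.45 in P (adjusted p = 0.00393) in MCF10A, and by 0.75 (adjusted p = 0.0192) and 1.00 (adjusted p = 0.00122) in MDA-MB-231. FNIP1 was called in MDA-MB-231, at 1.19 in T (adjusted p = 0.00171) and 1.42 in P (adjusted p = 7.6e-05). In MCF10A its log2FC was 1.79 in T (adjusted p = 0.279) and 2.43 in P (adjusted p = 0.0981). FNIP1 passed there under 3 of 8 alternative settings in T and 5 of 8 in P. The length offset was among them in both fractions (adjusted p = 0.0274 and 0.00921). So was the fit without the 4 libraries that stood apart, where HPP T and H P are 1 library each. The difference between lines was not tested for this comparison. RRAGD fell by 0.60 on the log2 scale in MDA-MB-231 P (SE 0.18, adjusted p = 0.0478), from 7.43 and 10.95 CPM in H to 5.88 and 6.27 in HPP, a call that held in 2 of the 16 fits that each left out 1 library. These were 2 calls among 9 genes in both fractions of MCF10A, beside 3.74% of all genes in T and 6.5% in P, and 3 and 4 among 10 in MDA-MB-231, beside 3.78% and 11.5%.

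Of the remaining Rag GTPases, RRAGA and RRAGB had higher values in the H than in the N libraries of MCF10A without passing the test. The H libraries of TFEB lay below those of N in both fractions, and those of RRAGC did so in T. How many of all genes separate in this way was not counted, so a separation is not read here as a change. RRAGA stood at 110 and 105.3 CPM in N T, 170 and 243 in H T, 201 and 139 in N P, and 311 and 299 in H P, so that the H libraries lay above those of N in both fractions. The log2FC was 0.94 in T (adjusted p = 0.27) and 0.84 in P (adjusted p = 0.294). With an offset for transcript length, RRAGA, whose transcript is the shortest of the 10 at 1599 nucleotides, passed in both at 0.94 (adjusted p = 0.0261) and 0.98 (adjusted p = 0.0202). In MDA-MB-231 H its log2FC was 0.45 in T (adjusted p = 0.207) and 0.30 in P (adjusted p = 0.342). In HPP the log2FC of RRAGA was 0.52 in T (adjusted p = 0.324) and 0.40 in P (adjusted p = 0.405) of MCF10A, and 0.38 (adjusted p = 0.117) and 0.40 (adjusted p = 0.0803) in MDA-MB-231. With the length offset it passed in MCF10A HPP P at 0.71 (adjusted p = 0.0185) and in MDA-MB-231 HPP at 0.42 in T (adjusted p = 0.0391) and 0.50 in P (adjusted p = 0.0134). RRAGB stood at 8.67 and 5.61 CPM in N T, 11.3 and 11.2 in H T, 11.4 and 7.48 in N P, and 16.7 and 14.8 in H P of MCF10A, again with the H libraries above those of N, and its log2FC was 0.66 in T (adjusted p = 0.438) and 0.74 in P (adjusted p = 0.302). In all, RRAGB ran from 5.61 to 17.7 CPM in MCF10A and from 8.96 to 15.1 in MDA-MB-231, with 0 calls, but in MCF10A HPP P its log2FC passed with the length offset (0.88, adjusted p = 0.0235) and without the 4 libraries that stood apart (1.07, adjusted p = 0.0377, against N P replicate 2 alone, the lower of its pair). RRAGD in MDA-MB-231 was at 13.2 and 13.3 CPM in N T, 14.9 and 14.9 in H, 12.9 and 10.8 in NPP, and 13.3 and 12.8 in HPP, and none of these treatments was called.

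TFE3 was the most abundant factor of the family in MCF10A, and its libraries ran from 27.97 to 79.5 CPM there and from 36.7 to 67.6 in MDA-MB-231. Its largest log2FC was 0.69 in MCF10A HPP T (SE 0.30, adjusted p = 0.159), with 72.3 and 79.5 CPM against 36.4 and 58.0 in N. TFEB in MCF10A P went from 15.4 and 11.8 CPM in N to 8.19 and 8.64 in HPP, a log2FC of -0.69 (SE 0.31, adjusted p = 0.136). In MDA-MB-231 P TFEB was at 1.31 and 1.13 CPM in N and 0.76 and 0.42 in NPP, a log2FC of -1.02 (SE 0.35, adjusted p = 0.2), and in T it was at 0.86 and 0.97 in N and 1.68 and 1.32 in HPP, a log2FC of 0.72 (SE 0.35, adjusted p = 0.185). Both rest on the few counts given above. MITF was the only factor called against N. Its MDA-MB-231 P libraries were at 46.3 and 48.3 CPM in N, 49.4 and 53.3 in H, 60.2 and 51.3 in NPP, and 74.8 and 64.6 in HPP, where it rose by a log2FC of 0.56 (SE 0.17, adjusted p = 0.0337). HPP T gave 75.8 and 61.8 CPM against 54.8 and 42.7 in N, with a log2FC of 0.50 (SE 0.17, adjusted p = 0.0703), and passed under 5 of 7 alternative settings, such as the length offset (0.52, adjusted p = 0.0325). The other MDA-MB-231 T libraries were at 59.2 and 52.9 CPM in H and 61.5 and 47.0 in NPP. In MCF10A T MITF was at 15.4 and 13.3 CPM in N, 16.9 and 12.3 in H, 15.8 and 3.68 in NPP, and 12.4 and 8.66 in HPP. In MCF10A P it was at 7.79 and 12.9 CPM in N, 12.1 and 14.7 in H, 12.6 and 11.9 in NPP, and 11.2 and 19.5 in HPP. The treatments overlapped N in both fractions, except that both HPP T libraries lay below those of N. In MCF10A the log2FC of MITF in HPP was -0.45 in T (adjusted p = 0.638) and 0.57 in P (adjusted p = 0.474). The call in HPP P was lost when any of 7 of the 16 MDA-MB-231 libraries was left out.

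**Figure D3:**
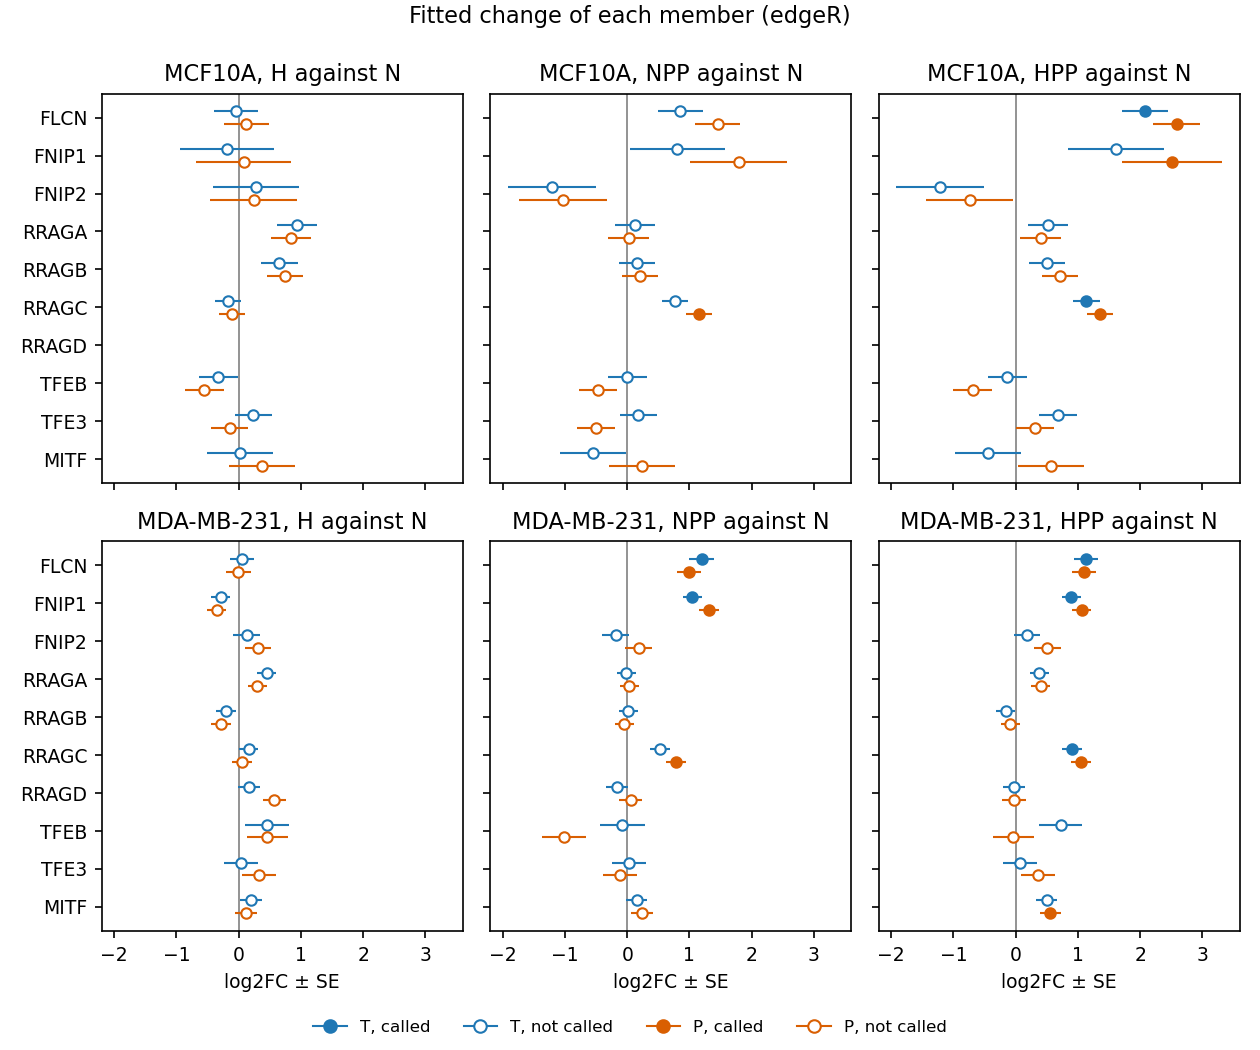
Fitted log2FC against N of each gene in T (blue) and P (orange), with bars of 1 SE, for H, NPP and HPP in MCF10A (upper row) and MDA-MB-231 (lower row); filled points passed an adjusted p of 0.05 and open points did not. Filled points are at FLCN, FNIP1 and RRAGC in the columns with PP242 and at MITF in MDA-MB-231 HPP P, and there are none in the H column; RRAGD was not tested in MCF10A.

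Translational efficiency (Te) was taken as the log2FC in P minus that in T and tested as an interaction. None of the genes was called in H, NPP or HPP in either line by edgeR or DESeq2, and 0 had an unadjusted p under 0.05. In MCF10A this stood beside 0% of all genes in H, 0% in NPP and 0% in HPP, with 23, 296 and 433 genes at an unadjusted p under 0.05, and in MDA-MB-231 beside 0.0148%, 0.34% and 0.696%. In HPP the Te of FLCN was 0.51 (SE 0.50) in MCF10A and -0.03 (SE 0.27) in MDA-MB-231, that of FNIP1 0.90 (SE 1.07) and 0.17 (SE 0.22), and that of RRAGC 0.22 (SE 0.30) and 0.14 (SE 0.22). These changes were smaller than or close to their errors. Without the MCF10A libraries that stood apart, the Te in MCF10A HPP was 0.098 for FLCN, -0.12 for FNIP1 and 0.20 for RRAGC. That fit has 1 library in N P and 1 in HPP T. The sign for FNIP1 in MCF10A thus depended on the libraries that stood apart. When each MCF10A library was left out in turn, the Te of FNIP1 in HPP ran from 0.35 to 1.97. In untreated cells RRAGD was the 1 gene of the 10 called between fractions. It was at 13.2 and 13.3 CPM in T and at 5.88 and 6.49 in P of MDA-MB-231 N, a log2FC of -1.10 (SE 0.19, adjusted p = 0.00232), beside 13.1% of all genes called in that comparison. In MCF10A N 0 of 9 genes and 0% of all genes were called between P and T, with 1660 genes at an unadjusted p under 0.05. With a block for the culture that T and P may share, 0 of the 9 were called. With that block RRAGD kept its call in MDA-MB-231 N, and no Te of the genes was called in either line.

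Whether the lines responded differently was tested directly as an interaction of line and treatment. FLCN rose less in MDA-MB-231 than in MCF10A in HPP P, with a difference of -1.51 on the log2 scale (SE 0.40, adjusted p = 0.0395). This was 1 call among the 9 genes tested in both lines, beside 3.6% of all genes. The call held under 6 of 8 alternative settings and in 23 of the 32 fits that each left out 1 library; it was lost without a filter on low counts and with only the libraries compared (adjusted p = 0.13). In HPP T its difference was -0.85 (SE 0.40, adjusted p = 0.319), and for FNIP1 in HPP P it was -1.47 (SE 0.80, adjusted p = 0.38). RRAGC differed by -0.32 in HPP P (SE 0.26, adjusted p = 0.607). RRAGB differed by -0.84 in HPP P (SE 0.32, adjusted p = 0.174), which passed with the length offset (-0.99, adjusted p = 0.0391) and without the 4 MCF10A libraries (-1.26, adjusted p = 0.0236), and by -1.11 in H P (SE 0.32, adjusted p = 0.242). FNIP2 differed by 1.24 in HPP P and passed only without the 4 libraries (1.56, adjusted p = 0.0149); N P of MCF10A is then 1 library for both genes. None of the 9 genes tested in both lines was called in HPP T (3.31% of all genes) or in NPP T or P (0.056% and 0.126%). None was called in H T or P (0.266% and 0.329%). RRAGD is left out of these counts. It held 2 counts over all MCF10A libraries, and its difference had an SE of 345 in H T, so that it could not be called.

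The promoters of the 3 genes with most calls, and of RRAGB for its matches, are shown because E-boxes are the sequences that TFEB, TFE3 and MITF are known to bind. RefSeq windows (build GRCh38.p14, 250 bases before to 50 after a transcription start) were found for 8 of the 10 genes, and not for RRAGA and RRAGD. CACGTG was searched on both strands and occurred in 3 of the 8, FNIP1, RRAGC and RRAGB. Some of the genes have several windows, and counted by window it occurred in 3 of 13, against 7.26% of the 35116 windows in the table. At least 2 matches, as in FNIP1 and RRAGB, occurred in 0.664% of the windows. TCACGTGA, which contains CACGTG, occurred once in RRAGB and in none of the other windows, against 0.98% of all. ACGTG, which lies within both, occurred in 21.4% of all windows. Here it was found in windows of RRAGC, FNIP1, RRAGB, FNIP2 and MITF, and in none of FLCN, TFEB or TFE3. In the sequences, read 5′ to 3′ on the strand of the gene, capitals mark CACGTG.
FNIP1 (chr5:131796968-131797267, minus strand): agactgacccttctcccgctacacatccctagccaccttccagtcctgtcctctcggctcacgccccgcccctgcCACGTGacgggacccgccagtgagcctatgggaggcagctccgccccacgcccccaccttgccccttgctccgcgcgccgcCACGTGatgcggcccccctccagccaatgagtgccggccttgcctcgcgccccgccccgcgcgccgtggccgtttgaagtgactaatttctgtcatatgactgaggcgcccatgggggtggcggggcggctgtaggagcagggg
RRAGC (chr1:38859723-38860022, minus strand): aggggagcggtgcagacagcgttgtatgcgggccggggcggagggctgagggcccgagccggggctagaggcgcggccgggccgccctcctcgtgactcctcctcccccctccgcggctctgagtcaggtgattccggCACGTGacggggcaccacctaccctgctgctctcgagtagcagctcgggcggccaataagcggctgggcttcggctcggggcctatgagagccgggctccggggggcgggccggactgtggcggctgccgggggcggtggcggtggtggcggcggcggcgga
FLCN (chr17:17237119-17237418, minus strand): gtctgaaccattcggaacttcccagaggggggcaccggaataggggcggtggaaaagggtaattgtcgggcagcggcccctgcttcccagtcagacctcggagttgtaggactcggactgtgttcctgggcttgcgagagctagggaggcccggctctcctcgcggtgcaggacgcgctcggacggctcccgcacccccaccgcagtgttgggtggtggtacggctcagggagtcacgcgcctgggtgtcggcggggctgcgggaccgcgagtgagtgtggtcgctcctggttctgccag
RRAGB (chrX:55717499-55717798, plus strand): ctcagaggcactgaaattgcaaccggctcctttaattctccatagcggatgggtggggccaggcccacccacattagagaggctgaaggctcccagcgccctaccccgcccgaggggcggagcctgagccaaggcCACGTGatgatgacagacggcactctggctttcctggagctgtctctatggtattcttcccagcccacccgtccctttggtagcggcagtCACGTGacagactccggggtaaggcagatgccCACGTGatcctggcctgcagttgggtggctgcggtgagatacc
The matches begin 175 and 94 bases before the start in FNIP1, between these positions in RRAGC, and 115 and 25 bases before it and 8 bases into the transcript in RRAGB. The window of FLCN holds no CACGTG. Whether matches go with the changes of these genes was not tested. A match here is a description of letters and not a binding site.

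Genes of the surrounding pathway were counted by list, and the lists too were chosen with earlier results of these data known. Of 29 lysosomal and autophagy genes known as targets of the TFE factors, 28 were tested in MCF10A and 29 in MDA-MB-231, and every call against N was upwards. In MDA-MB-231 HPP 9 of 29 were called in T and 6 in P, beside 13.2% and 19.4% of all genes, with median log2FC of 0.37 and 0.35 against -0.05 and 0.01 over all genes. In MCF10A HPP 4 of 28 were called in T and 5 in P, beside 14.9% and 22.2% of all genes, with medians of 0.59 and 0.53 against -0.01 and -0.04. Counted upwards alone, as all these calls were, the shares of all genes were 6.31% and 9.71% in MDA-MB-231 and 7.43% and 10.2% in MCF10A. Without the 4 MCF10A libraries that stood apart 4 rose and VPS18 fell in HPP T, where PSAP was no longer called and TPP1 was, and 9 rose in HPP P, beside 10.1% and 12.6% of all genes called upwards. SQSTM1, an autophagy receptor, rose by a log2FC of 1.03 in T (SE 0.14, adjusted p = 0.000412) and 1.07 in P (SE 0.14, adjusted p = 0.000125) of MDA-MB-231 HPP and by 1.22 in MCF10A HPP P (SE 0.30, adjusted p = 0.013). It was also the 1 gene of the list called in MDA-MB-231 NPP, at 0.82 in T (adjusted p = 0.017) and 0.80 in P (adjusted p = 0.00482). Beside it 0.555% and 1.95% of all genes were called there. In MDA-MB-231 HPP T the lysosomal sialidase NEU1 (0.86), the heparan sulphamidase SGSH (0.81) and the peptidase TPP1 (0.73) had the next largest log2FC. TPP1 (1.48), the saposin precursor PSAP (1.44) and the protease CTSB (1.09) also rose in MCF10A HPP P, and NEU1 (1.52) led in MCF10A HPP T, followed by CTSB (1.31), the autophagosome protein MAP1LC3B (1.12) and PSAP (1.02). NPP gave 0 calls among the 28 in T and P of MCF10A, beside 0.648% and 0.823% of all genes. For HPP against H, 3 of 29 rose in T and 6 in P of MDA-MB-231, beside 3.78% and 11.5% of all genes called. In MCF10A 0 and 2 of 28 rose, beside 3.74% and 6.5%, and SQSTM1 and VPS11 were the 2. Upwards alone, the shares of all genes were 1.7% and 4.86% in MDA-MB-231 and 1.33% and 2.63% in MCF10A. Hypoxia gave 0 calls in MDA-MB-231 T and in T and P of MCF10A, beside 1.27%, 1.54% and 1.49% of all genes. In MDA-MB-231 P 1 of 29 was called, ATP6V0E1, a subunit of the lysosomal proton pump, at 0.88 (adjusted p = 0.016). This is near the background of 2.29% of all genes there.

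**Figure D4:**
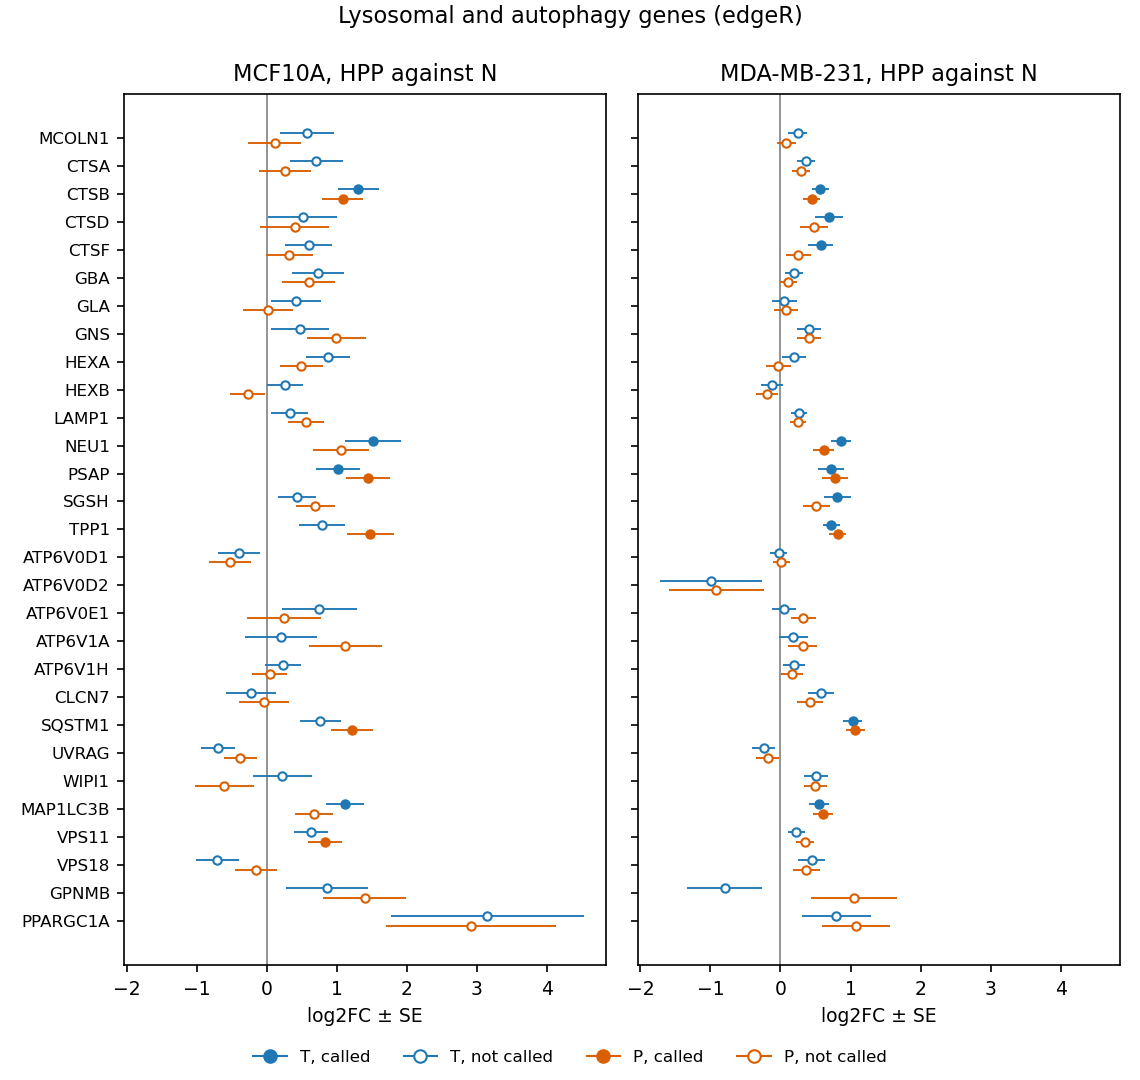
Fitted log2FC of HPP against N, with bars of 1 SE, for 29 lysosomal and autophagy genes in T (blue) and P (orange) of MCF10A (left) and MDA-MB-231 (right); filled points passed an adjusted p of 0.05 and open points did not. All filled points lie to the right of 0, with SQSTM1 at 1.03 and 1.07 in MDA-MB-231; ATP6V0D2 was not tested in MCF10A.

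The complexes that act on the Rags had 0 to 2 calls per list and comparison with N. Most were in HPP, where 13.2% to 22.2% of all genes were called, so that nothing particular to these lists is read from them. Of the 6 genes of Ragulator, the anchor of the Rags on the lysosome, and the transporter SLC38A9, LAMTOR3 rose in MCF10A HPP T (1.08, adjusted p = 0.0332) and P (1.01, adjusted p = 0.0338) and in MDA-MB-231 HPP P (0.65, adjusted p = 0.0126), and LAMTOR5 (0.81, adjusted p = 0.0234) and LAMTOR2 (0.79, adjusted p = 0.0405) rose in MDA-MB-231 H P, 2 of 6 genes beside 2.29% of all. In HPP against H, LAMTOR2 (-0.71, adjusted p = 0.0225), LAMTOR4 (-0.82, adjusted p = 0.02) and LAMTOR5 (-0.81, adjusted p = 0.00808) fell in MDA-MB-231 P, 3 of 6 genes beside 11.5% of all. Of the 5 genes of GATOR2, a positive regulator of mTORC1, MIOS fell by 1.48 in MCF10A NPP T (adjusted p = 0.0468, beside 0.648% of all genes), by 1.05 in HPP T (adjusted p = 0.0298) and, in MDA-MB-231, by 0.55 in HPP T (adjusted p = 0.0146), as log2FC. Without the 4 MCF10A libraries that stood apart MIOS was not called in T and was called downwards in NPP P and HPP P, whereas LAMTOR3 kept its calls in HPP. SEH1L, also of the nuclear pore, fell by 0.42 in T (adjusted p = 0.0388) and 0.40 in P (adjusted p = 0.0333) of MDA-MB-231 HPP. Of GATOR1, the complex that turns RRAGA and RRAGB off, NPRL3 fell by 0.56 in MDA-MB-231 HPP P (adjusted p = 0.0247) and the other 2 genes were not called. ITFG2 of the 4 KICSTOR genes rose in MCF10A HPP P (1.06, adjusted p = 0.0126), also without the 4 libraries, and in HPP against H in MDA-MB-231 P (0.78, adjusted p = 0.0123).

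SESN3, a sestrin, was not tested in MCF10A and had the largest change among the amino acid sensors called in MDA-MB-231. It rose by a log2FC of 1.81 in MDA-MB-231 HPP T (SE 0.22, adjusted p = 0.000223), 1.78 in HPP P (SE 0.22, adjusted p = 8.35e-05) and 1.01 in NPP P (SE 0.22, adjusted p = 0.0256, beside 1.95% of all genes), whereas SESN2 fell by 0.67 in HPP P (adjusted p = 0.0266). GATSL3, now called CASTOR1, an arginine sensor, rose by 1.37 in MCF10A HPP T (adjusted p = 0.0282), a call lost without the 4 libraries. In HPP against H, SESN3 rose in MDA-MB-231 T (1.45, adjusted p = 0.00443) and P (1.30, adjusted p = 0.00151), and SESN1 fell in MCF10A T (-1.01, adjusted p = 0.0423), a call also lost without the 4 libraries. Of the AMPK subunits, PRKAG1 fell in MDA-MB-231 P by 0.73 in H (adjusted p = 0.00913) and 0.64 in HPP (adjusted p = 0.0043), and PRKAB2 (0.71, adjusted p = 0.0408) and PRKAG2 (0.55, adjusted p = 0.0223) rose in HPP P. None of the 4 genes of calcineurin, which dephosphorylates TFEB, and none of the 7 genes of 14-3-3 proteins was called against N. Over all genes 0.555% to 2.29% were called in H and NPP and 13.2% to 22.2% in HPP. With so few genes, nothing particular to these 2 lists is read from the 0 calls. Without the 4 MCF10A libraries PPP3R1 of calcineurin in HPP P and YWHAG of the 14-3-3 proteins in NPP P were called downwards, and the AMPK subunit gene PRKAA2 upwards in HPP T.

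Across all 32 libraries, after the mean of each line had been taken off, the log2 CPM of FLCN was most like that of TEC (r = 0.94), FAM21A (0.94), KLF6 (0.92), FAM21C (0.92) and PPP1R15A (0.92), where FAM21A and FAM21C are near-identical copies that can share reads. FNIP1 was most like STARD13 (0.96), UGCG (0.94), CREBRF (0.94), WDR47 (0.94) and IQGAP1 (0.93). RRAGC was most like HBP1 (0.92), SPPL3 (0.91), FAM117A (0.91), MAFF (0.91) and SQSTM1 (0.91). FLCN had an r of 0.90 with FNIP1 and 0.87 with RRAGC. These are descriptions over libraries that share treatments, possibly cultures and, in MCF10A, the uneven length trend. Genes annotated over the exons of FLCN, FNIP1, RRAGC and TFEB had at most 44, 0, 32 and 0 counts in any library.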

How the data were processed

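The authors aligned paired reads of poly(A)-selected libraries with STAR 2.5.1b to GRCh38 with GENCODE 24 and took expected counts of each gene from RSEM 1.2.28; the submitters' processing notes name GRCh37 instead, and no coordinates of the count tables were used. The deposited expected counts were whole numbers and entered as they stood. Genes were placed, and transcript lengths taken, from GENCODE 44 (GRCh38), which gave a length to 98.4% of the 19815 protein-coding genes. The kit's strand setting is not given in the sources used here, so a gene and an antisense partner could not be told apart. No column lacked a sample.

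Protein-coding genes that passed filterByExpr (13124 in MCF10A, 13510 in MDA-MB-231, 14298 over both lines) were fitted with edgeR 4.0.16 (quasi-likelihood test, TMM scaling, all 16 libraries of a line in 8 groups, or all 32 for comparisons of lines), with p-values adjusted over all genes tested by Benjamini-Hochberg and called under 0.05; every adjusted p is from edgeR. CPM between lines and per kb used scaling over all 32 libraries. With 2 replicates per group no exact test of single values could reach 0.05. All 10 genes were named, with values for every library where a gene was called in at least 1 of 12 treatment comparisons, and per list up to 4 called genes of largest change and any called the other way; likeness was given for the 3 genes with most calls. The 10 genes and the lists were chosen with earlier results of these data known. BMT2 of the amino acid sensor list is C7orf60 in the files. The test was run on simulated data first. Alternatives were DESeq2 1.42.0, RLE scaling, no filter, replicate and culture blocks, only the libraries compared, a lowess length offset (span 0.3), a z-score rule for Te, the 4 libraries with a length slope under -0.2 left out (added after the data were seen) and each library left out.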

Additional observations from a re-analysis of the deposited data

Results flagged for a closer look

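The rise of FLCN differed between the lines: in polysome-bound mRNA the log2FC of HPP against N was lower in MDA-MB-231 than in MCF10A by a difference of -1.512 (SE 0.40, edgeR adjusted p = 0.0395), tested as an interaction of line and treatment. FLCN went from a mean of 14.4 to 86.5 CPM in MCF10A and from 35.5 to 76.1 CPM in MDA-MB-231. The difference was between -1.76 and -1.22 when each of the 32 libraries was left out, and kept its call in 23 of the 32 cases and under 6 of 8 alternative settings, the exceptions being no filter on low counts and only the libraries compared (adjusted p = 0.13). The call was lost without MCF10A N P replicate 1, NPP P replicate 1 or 2 or HPP P replicate 2, or without MDA-MB-231 N P replicate 2, HPP T replicate 1 or 2 or HPP P replicate 1 or 2.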

How the results depend on the processing

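No log2FC of the 10 genes changed sign where it was called. In HPP against N the calls of FLCN, FNIP1 and RRAGC in MDA-MB-231 T and P, and those of FLCN and RRAGC in MCF10A P, held under all alternatives and without any 1 library. The numbers of genes called that moved by more than 1.5 times follow, and the others stayed within 1.5 times. The fit without the 4 libraries of steep slope is left out of this count. DESeq2 called 1 in MCF10A NPP T, 2 in NPP P and 2 in MDA-MB-231 N between P and T. Without a filter 0 were called in MCF10A NPP P and 0 for the line difference in HPP P. With the length offset MCF10A gave 1 in H T, 1 in H P, 2 in NPP P and 5 in HPP P, MDA-MB-231 gave 5 in HPP T, and the line difference in HPP P gave 2. With only the libraries compared, MCF10A gave 0 in HPP against H in T and 0 in NPP P, MDA-MB-231 0 in NPP T and 1 in NPP P, and the line difference in HPP P 0. The fit without the 4 libraries of steep slope was chosen after seeing the data and leaves 1 library in N P, H P, NPP T and HPP T. Its calls are therefore not counted here. In it the log2FC of FNIP2 in MCF10A was -1.14 in HPP P and -1.32 in P for HPP against H. The line difference in HPP P was then -1.26 for RRAGB and 1.56 for FNIP2.

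Calls that appeared under an alternative and are not named above were RRAGC in NPP T of both lines and RRAGA between P and T of MDA-MB-231 N with DESeq2, FNIP2 and RRAGA in MDA-MB-231 HPP P without a filter, FNIP1 and FNIP2 between the lines with only the libraries compared, and FNIP2 between the lines and in MCF10A HPP against H in P without the 4 libraries. The replicate block within each fraction added FNIP1 in NPP P, FNIP1 in T of HPP against H and TFEB in HPP P of MCF10A, and both replicate blocks MITF in MDA-MB-231 HPP against H in P.

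Same-numbered libraries did not deviate together throughout (28 correlations from -0.641 to 0.778 in MCF10A and from -0.187 to 0.348 in MDA-MB-231), so the numbers were not taken to pair them. A replicate block called 5 genes between the lines in N T, as without it, RRAGD included. The replicate block within each fraction called 3 in MCF10A NPP P and 5 between the lines. No other count moved by more than 1.5 times under a block.

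Leaving out 1 library, which leaves a lone sample assumed to vary like the other groups, gave, in MCF10A, 0 to 2 calls in NPP T, 0 to 2 in NPP P, 0 to 3 in HPP T, 2 to 3 in HPP P, and, for HPP against H, 0 to 2 in T and 1 to 3 in P. In MDA-MB-231 it gave 0 to 2 in NPP T, 1 to 3 in NPP P, 3 to 4 in HPP T, 3 to 5 in HPP P, 1 to 3 in T and 3 to 4 in P for HPP against H, and 1 to 2 between P and T in N. Between lines it gave 2 to 5 in N T, 0 to 3 for the difference in NPP T and 0 to 1 in HPP P. In HPP T of MCF10A the call of FLCN was lost without N T replicate 2, and that of RRAGC without N T replicate 1 or 2 or HPP T replicate 2. In MDA-MB-231 NPP P those of FLCN and RRAGC were lost without N P replicate 1 or NPP P replicate 2, and in NPP T those of FLCN and FNIP1 without either N T replicate, that of FLCN also without NPP T replicate 2 and that of FNIP1 without NPP T replicate 1. With 2 libraries per group and a biological coefficient of variation of 0.325 in MCF10A against 0.150 in MDA-MB-231, a missed threshold in MCF10A does not show that a gene was unchanged.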
